A study of Mus musculus with 22 samples.

Results

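Inhaled methacholine was compared with inhaled phosphate-buffered saline (PBS) in mouse lung, with a short and a long challenge protocol pooled. The comparison took every library labelled methacholine (MCh, 8 libraries) or PBS (6 libraries), which made 14 of the 22 libraries of the series. The other 8 libraries came from mice given ovalbumin (OVA) and are used only beside the MCh values. The measurement was total RNA sequencing of lung, deposited as FPKM (a level scaled to transcript length and to the mapped fragments of the library) for 20938 genes.

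All animals were BALB/c mice. Per the sample labels, intraperitoneal sensitization took place at an age of 49 days and the boost at 63 days, and inhaled challenges began at 70 days. The short protocol ran over 3 consecutive days and held 3 PBS and 4 MCh mice. The long protocol ran 3 times a week for 4 weeks and held 3 PBS and 4 MCh mice. The labels are not of one voice. Sample titles give 4 days for the short MCh group and 30 days for the long groups, and call the PBS and MCh mice normal where the treatment text calls them sensitized. The series design text speaks of trachea where the samples are labelled lung. Titles name the libraries as biological replicates, taken here as separate mice. The sources used here do not give the sensitizing antigen of the PBS and MCh groups, the MCh dose or the time of day of collection. Long MCh libraries could be matched to their group but not to a single sample, so they are called a to d. The others carry the numbers of their labels.

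Methacholine is a stable analogue of acetylcholine. It acts on muscarinic receptors of airway smooth muscle, where the M3 receptor works through Gq, phospholipase C and calcium to activate myosin light chain kinase and contract the airway. It is inhaled in tests of airway responsiveness because it narrows airways without an antigen. Contraction also loads the epithelium and the matrix mechanically, and epidermal growth factor receptor ligands and transforming growth factor beta are among the signals studied downstream of that load.

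The tissue label was checked against marker genes. Sftpc, the surfactant protein of alveolar type 2 cells, ranged from 4592 to 13050 FPKM over the 14 libraries, and Scgb1a1, the secretoglobin of club cells, from 33662 to 52948 FPKM. Of the tracheal cartilage genes, Matn1 was listed at 0 in every library and Acan reached 0.205 FPKM at most. Others were detected at low levels, with maxima of 3.09 FPKM for Hapln1, 2.61 for Col11a2, 1.74 for Col9a2 and 1.65 for Sox9. Bpifa1, a gene of the club cell list, ranged from 12.9 to 3163 FPKM. How much large airway each sample held was not tested.

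Some MCh libraries stood apart. The share of genes listed at 0 FPKM was 34.3% in long MCh a, 33.8% in long MCh c and 28.3% in short MCh 1, and at most 24.5% in the other 11. Quality weights that limma estimated from the spread of each library were 0.0877 to 0.271 for long MCh a, long MCh c, short MCh 1 and short MCh 4, and 1.52 to 3.11 for the other 10. Short MCh 4 also had more signal from short transcripts: its summed FPKM over 25 cytosolic ribosomal protein genes was 20288, where the other 13 libraries ranged from 7371 to 11421. The median standard deviation per gene on the log2 scale was 0.327 in short MCh and 0.375 in long MCh, against 0.139 and 0.104 in the PBS groups. The depth of each library is unknown, because the FPKM values show no steps of whole reads. No libraries held identical values.

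**Figure D1:**
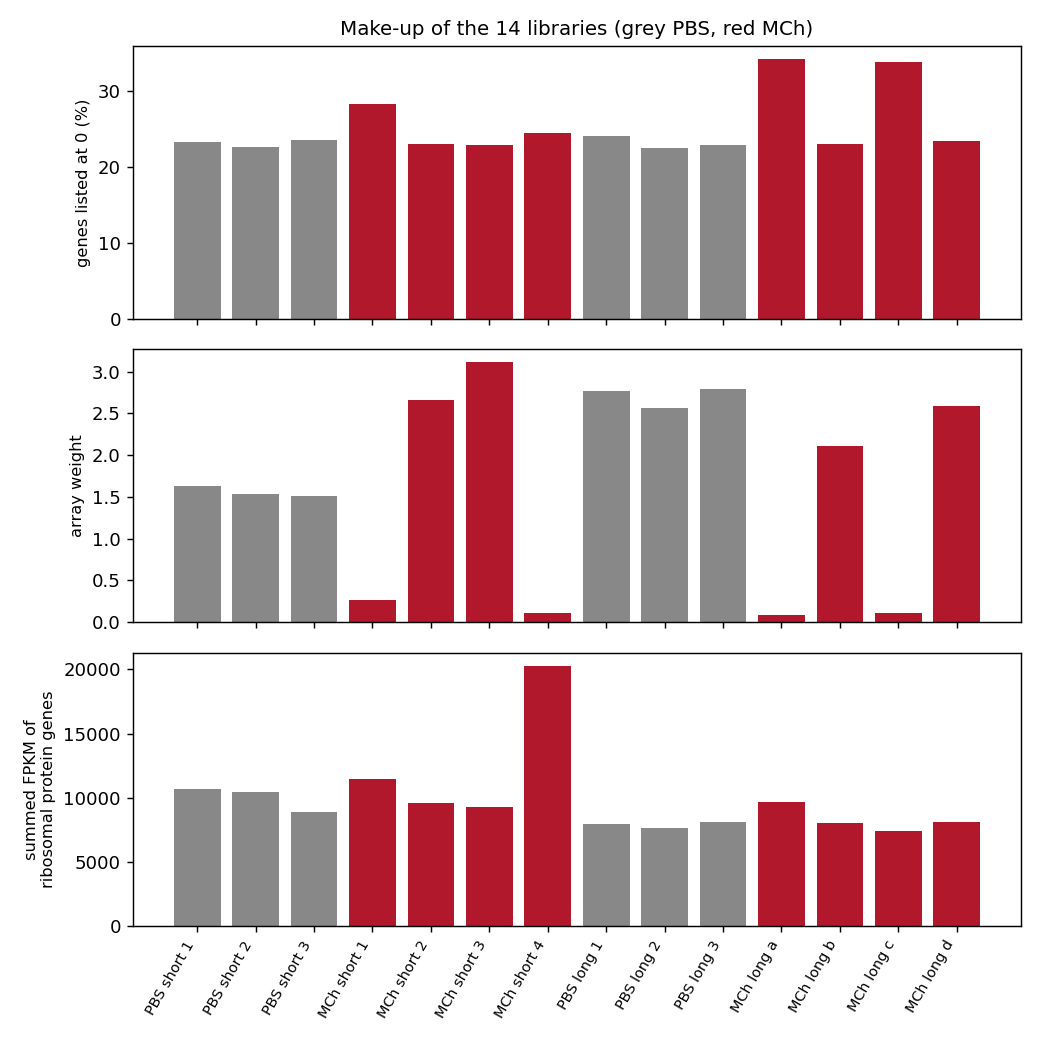
Percentage of genes listed at 0 FPKM, limma array weight and summed FPKM of cytosolic ribosomal protein genes in each of the 14 libraries (grey bars PBS, red bars MCh). Long MCh a and c and short MCh 1 have the highest share of genes at 0, and short MCh 4 has the highest ribosomal protein sum, 20288 FPKM.

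With protocol as a covariate, limma called 3 genes different between MCh and PBS at a Benjamini-Hochberg adjusted p below 0.05, which was 0.0195% of the 15357 genes tested. All 3 were higher with MCh: Mt2, Maff and Pmvk. No gene was called lower. At an unadjusted p below 0.05 there were 1396 genes (9.09% of those tested), of which 1114 were lower (7.25%) and 282 higher (1.84%). Across all tested genes the median log2 difference, MCh minus PBS, was -0.11 on the deposited scale. It was -0.03 after median-of-ratios scaling and 0.01 after quantile normalization, so a gene or list at -0.11 lies at the centre of the deposited table. All differences below are on the log2(FPKM + 0.5) scale, which understates changes of genes with low FPKM. A value after ± is the standard error of the difference unless marked SD, and many differences are given without one.

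Mt2 encodes metallothionein 2, a small cysteine-rich protein that binds zinc and copper; its gene and that of its paralog Mt1 are known to respond to metals and to glucocorticoids. Metal responses run through metal response elements in the promoter, bound by the factor MTF1. The promoters of both genes (RefSeq, GRCm38.p6, from 250 bases before to 50 bases after the gene start) are shown because Mt2 had the greatest fold of the called genes. Mt2 lies at chr8:94172368-94172667 and Mt1 at chr8:94178839-94179138, both on the plus strand. These RefSeq starts differ by some bases from those of the GENCODE vM21 annotation, which gives the gene coordinates in the text. Capitals mark the metal response element core, TGCACNC or TGCGCNC, on either strand, where N is any base. This motif was chosen after the values were seen.
Mt2: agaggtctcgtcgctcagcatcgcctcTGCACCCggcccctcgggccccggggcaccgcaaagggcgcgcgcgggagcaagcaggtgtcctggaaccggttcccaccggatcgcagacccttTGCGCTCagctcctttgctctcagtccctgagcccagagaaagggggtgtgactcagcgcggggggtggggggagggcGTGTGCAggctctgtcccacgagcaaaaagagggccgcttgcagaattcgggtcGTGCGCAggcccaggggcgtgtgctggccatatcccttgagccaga
Mt1: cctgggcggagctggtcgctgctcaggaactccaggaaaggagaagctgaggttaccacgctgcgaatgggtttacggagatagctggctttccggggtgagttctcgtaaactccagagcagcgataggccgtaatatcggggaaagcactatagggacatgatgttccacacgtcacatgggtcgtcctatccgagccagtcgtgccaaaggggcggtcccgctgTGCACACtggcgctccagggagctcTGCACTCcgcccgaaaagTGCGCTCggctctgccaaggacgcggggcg
The Mt2 window holds 4 cores (2 on each strand) and the Mt1 window 3, all on the plus strand. Of 32851 mouse promoters of this length, 25.7% hold at least 1 core, 1.97% at least 3 and 0.517% at least 4. A match of letters is a description of the window and was not tied to binding here.

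Mt2 (chromosome 8, 94172664 to 94173568, plus strand) was measured in the short protocol at 25.1, 33.2 and 13.97 FPKM in the 3 PBS mice and at 104, 78.0, 78.1 and 152 FPKM in the 4 MCh mice. In the long protocol the PBS values were 10.9, 16.4 and 15.7 FPKM and the MCh values 27.6, 37.0, 52.3 and 51.1 FPKM. The groups did not overlap in either protocol: group means went from 24.1 ± 9.67 (SD, n = 3) to 103 ± 34.7 (SD, n = 4) and from 14.4 ± 3.02 (SD, n = 3) to 42.0 ± 11.9 (SD, n = 4). The log2 difference was 1.80 ± 0.23, a fold of 3.47, with a limma adjusted p of 0.0155. An exact two-sided permutation test within protocols gave p = 0.000816, the smallest that its 1225 assignments allow. For a gene without overlap no assignment gives a higher difference in that direction, so this p restates the separation. It was not adjusted for the number of genes. Within the short protocol the difference was 2.10 ± 0.32 and within the long protocol 1.49 ± 0.32. The call was lost when PBS long 1 (adjusted p = 0.0642), PBS short 1 (0.0593), MCh short 2 (0.0578) or MCh short 3 (0.0549) was left out. An annotated gene on the opposite strand, Gm45774, overlaps Mt2, and the strand setting of the counting is not given in the sources used here.

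Maff (chromosome 15, 79346621 to 79359076, plus strand) encodes a small Maf protein, a basic leucine zipper factor that pairs with NRF2 and related proteins at antioxidant response elements. Short PBS libraries gave 18.1, 18.5 and 14.02 FPKM and short MCh libraries 29.6, 32.8, 31.1 and 35.8 FPKM. Long PBS libraries gave 7.15, 9.66 and 10.5 FPKM and long MCh libraries 16.4, 19.4, 14.6 and 14.4 FPKM. Every MCh value lay above every PBS value of its protocol. The difference was 0.86 ± 0.11, a fold of 1.82, with an adjusted p of 0.0155 by limma, and it was 0.92 ± 0.17 in the short and 0.81 ± 0.17 in the long protocol. Leaving out any of 5 single libraries ended the call for Maff: PBS long 1 (adjusted p = 0.0642), PBS short 1 (0.0593), PBS short 3 (0.0638), MCh short 2 (0.0639) or MCh short 3 (0.0549).

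Pmvk (chromosome 3, 89454541 to 89469013, plus strand) encodes phosphomevalonate kinase, an enzyme of the mevalonate route to cholesterol and isoprenoids. In the short protocol it stood at 7.56, 7.56 and 5.39 FPKM with PBS and at 13.3, 12.3, 12.5 and 20.8 FPKM with MCh. Its long values were 4.51, 4.99 and 5.32 FPKM with PBS and 11.5, 8.94, 9.34 and 8.22 FPKM with MCh. There was no overlap in either protocol, and the highest value, 20.8 FPKM, was that of short MCh 4. The pooled difference was 0.95 ± 0.14, a fold of 1.94, with a limma adjusted p of 0.0484. This call was the least firm of the 3, since 13 of the 14 single-library omissions ended it, with an adjusted p of up to 0.195 without PBS short 3. Only the fit without MCh short 4 kept Pmvk (adjusted p = 0.0155). The other genes of the cholesterol list are given below, and none of them passed.

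Weighting or leaving out libraries changed the number of calls far more than the fitted values of Mt2, Maff and Pmvk. Mt2 was at 1.69 with array weights and at 1.67 without the 4 low-weight libraries. Without the 4 MCh libraries of low weight, an alternative added after the data were seen, 70 genes passed (0.459% of 15260), 43 higher and 27 lower, and with array weights 217 passed (1.41%), 109 higher (0.71%) and 108 lower (0.703%). Mt2, Maff and Pmvk were among the calls of both fits, and 65 genes were shared between the fits. All 217 genes of the weighted fit had the same direction in the main fit. The fits reuse the same libraries, so shared calls and directions are descriptions and no separate support. Without the 3 libraries richest in zeros, no gene passed by limma (1527 at an unadjusted p below 0.05), and adjusted p-values were 0.0767 for Mt2, 0.0767 for Maff and 0.105 for Pmvk.

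**Figure D2:**
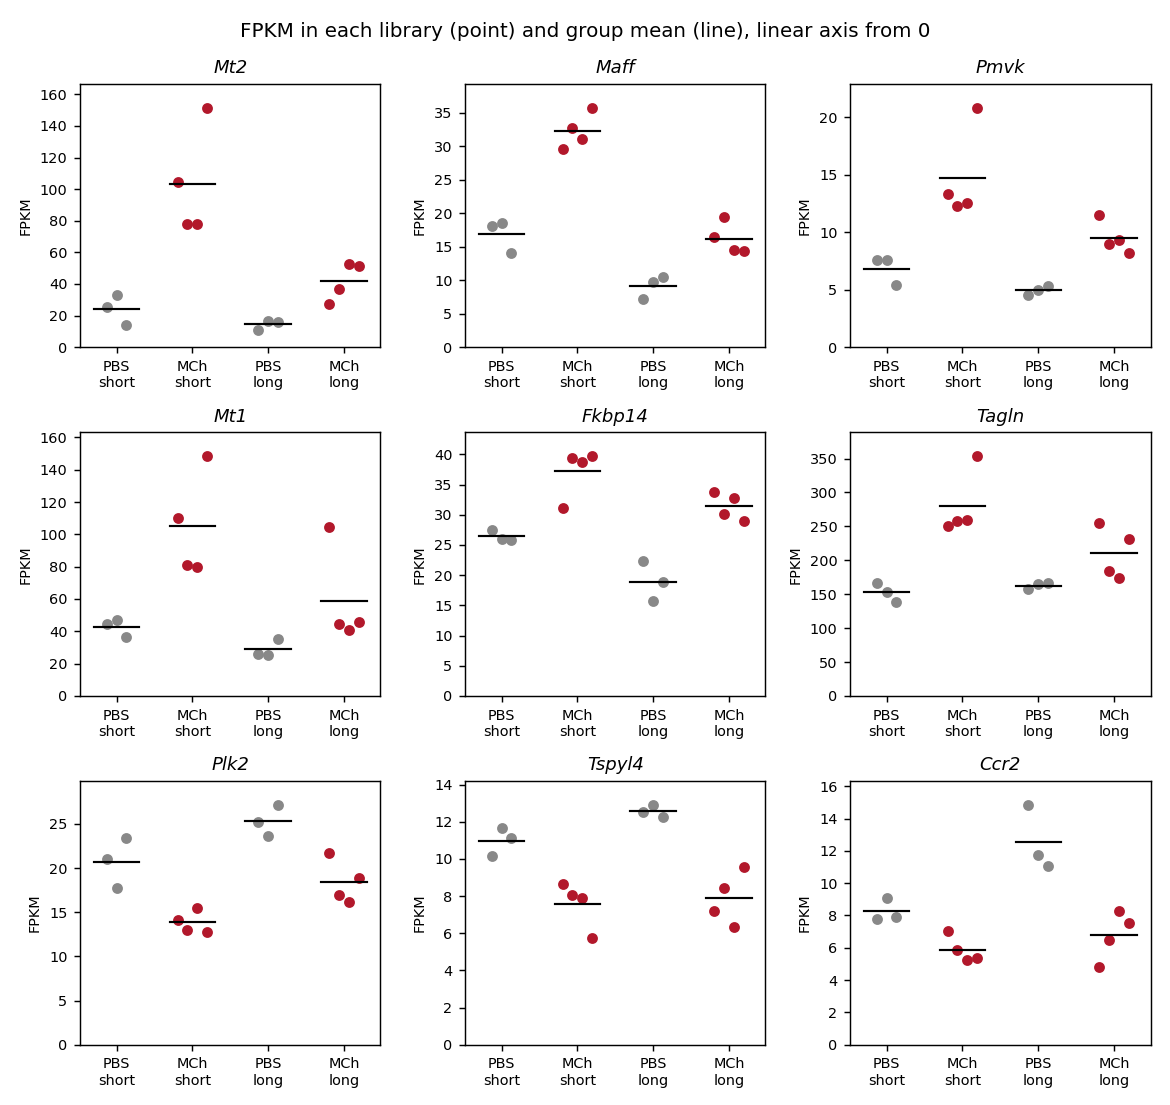
FPKM of 9 genes in each library by group (points are single mice, lines are group means, grey PBS and red MCh). Mt2, Maff and Pmvk passed the test and do not overlap between MCh and PBS in either protocol, and the other 6 panels show genes that did not pass.

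Genes just behind the called ones are described by their values, since none passed. The 12 named genes with the smallest unadjusted p among those higher with MCh had adjusted p-values of 0.0864 to 0.231, and 9 of them showed no overlap in both protocols. Across all genes tested, 0.384% were higher without overlap in both protocols, 3.28% in the short and 2.65% in the long. With array weights all 12 passed, and without the 4 low-weight libraries 10 passed. Picking genes by small p in these libraries favours both a lack of overlap and calls in refits of the same values. The counts are therefore descriptions and no separate support.

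Fkbp14, a peptidyl-prolyl isomerase of the endoplasmic reticulum that acts on collagen, gave 27.4, 26.1 and 25.8 FPKM in short PBS and 31.1, 39.4, 38.7 and 39.7 FPKM in short MCh. Its long values were 22.3, 15.6 and 18.9 FPKM against 33.7, 30.1, 32.8 and 28.9 FPKM. The difference was 0.60 ± 0.10 (adjusted p = 0.0864, limma), and all MCh values lay above the PBS values of their protocol. Fkbp14 overlaps Plekha8 on the opposite strand.

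Mt1, the neighbour of Mt2, stood at 44.8, 46.9 and 36.2 FPKM in short PBS and at 110, 81.3, 79.9 and 148 FPKM in short MCh. Long PBS libraries gave 26.1, 25.5 and 35.4 FPKM and long MCh libraries 104, 44.6, 41.1 and 45.9 FPKM. The pooled difference of Mt1 was 1.08 ± 0.21 with a limma adjusted p of 0.194. The groups did not overlap, which the unadjusted exact permutation p, 0.000816, restates. The high long value, 104 FPKM, belongs to long MCh a. Metallothionein genes are near-identical in parts, and how reads shared by Mt1 and Mt2 were counted is not given in the sources used here.

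Entpd1 and Nt5e encode CD39 and CD73, the surface enzymes that take ATP to AMP and AMP to adenosine. Entpd1 gave 76.8, 76.1 and 79.0 FPKM against 81.8, 106, 108 and 93.8 FPKM in the short protocol, and 74.2, 63.2 and 65.4 FPKM against 102, 100, 103 and 91.0 FPKM in the long one. Nt5e gave 41.3, 44.9 and 33.4 FPKM against 73.1, 71.6, 61.9 and 51.2 FPKM, and then 64.6, 60.1 and 54.5 FPKM against 66.5, 75.8, 81.3 and 89.1 FPKM. MCh values of both genes were above all PBS values of their protocol. Differences were 0.44 ± 0.083 for Entpd1 and 0.53 ± 0.11 for Nt5e, the latter with a limma adjusted p of 0.231.

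Rbm3, a cold-inducible RNA-binding protein, stood at 9.77, 12.6 and 9.87 FPKM in short PBS and at 19.5, 16.2, 16.2 and 26.0 FPKM in short MCh. In the long protocol it stood at 10.4, 9.44 and 10.2 FPKM with PBS and at 18.9, 14.2, 19.6 and 12.5 FPKM with MCh, a pooled difference of 0.73 ± 0.14. Bcl2l1, an anti-apoptotic BCL2 family gene, gave 127, 170 and 130 FPKM against 159, 208, 192 and 231 FPKM in the short protocol, where the ranges overlapped. Long values of Bcl2l1 were 90.2, 82.6 and 76.2 FPKM against 198, 162, 207 and 131 FPKM, without overlap, and the pooled difference was 0.76 ± 0.14. F3, tissue factor of the clotting cascade, had a difference of 0.74 ± 0.15 and Mthfd2, a mitochondrial folate enzyme, one of 0.60 ± 0.12, both with a limma adjusted p of 0.194.

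Nr4a3 is an orphan nuclear receptor of the immediate early class. It stood at 1.68, 2.04 and 1.16 FPKM in short PBS and at 5.75, 3.17, 3.87 and 1.58 FPKM in short MCh, where short MCh 4 lay within the PBS range. Its long values were 0.788, 0.975 and 0.847 FPKM against 2.46, 2.84, 3.87 and 2.96 FPKM, without overlap. The pooled difference was 1.11 ± 0.22 (adjusted p = 0.194, limma).

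On the lower side, the 12 named genes of smallest p had limma adjusted p-values of 0.194 to 0.421. For 10 of them MCh and PBS did not overlap in both protocols. Across all genes tested, 1.12% were lower without overlap in both protocols, 5.59% in the short and 10.6% in the long. The 12 were picked by p in the same libraries, so their count is a description. Plk2, a polo-like kinase, gave 21.0, 17.7 and 23.4 FPKM in short PBS and 14.1, 13.04, 15.5 and 12.8 FPKM in short MCh. Long values of Plk2 were 25.2, 23.6 and 27.1 FPKM against 21.7, 17.0, 16.2 and 18.9 FPKM. The difference was -0.51 ± 0.10 and the MCh values lay under the PBS values in both protocols.

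Tspyl4, a nucleosome assembly protein family member, stood at 10.2, 11.6 and 11.1 FPKM in short PBS and at 8.63, 8.07, 7.88 and 5.74 FPKM in short MCh. Long values of Tspyl4 were 12.5, 12.9 and 12.3 FPKM against 7.19, 8.44, 6.33 and 9.56 FPKM, again without overlap, for a difference of -0.59 ± 0.12 (adjusted p = 0.227, limma). Ccr2, the chemokine receptor that brings monocytes into tissue, gave 7.76, 9.11 and 7.94 FPKM against 7.05, 5.84, 5.25 and 5.35 FPKM in the short protocol. In the long protocol Ccr2 gave 14.8, 11.8 and 11.04 FPKM against 4.83, 6.46, 8.29 and 7.56 FPKM, and its pooled difference was -0.66 ± 0.14 (adjusted p = 0.302, limma). The monocyte and interstitial macrophage list, summed, ranged from 399 to 416 FPKM in short PBS and from 390 to 417 in short MCh. It ranged from 398 to 438 in long PBS and from 370 to 422 in long MCh. The sum mostly follows its high members: Ace reached 211 FPKM and Ccr2 at most 14.8. The list median was -0.08 in the short protocol (7 of 15 above 0) and -0.28 in the long (2 of 15). In a bulk tissue, fewer cells of a type and less RNA per cell cannot be told apart.

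Other lower genes by this rule were Herc6, an interferon-induced ubiquitin ligase (-0.69), Aplnr, the apelin receptor of endothelium (-0.63), Lbh (-0.54), Myo1e, an unconventional myosin (-0.59), Mmp11, a matrix metalloproteinase (-0.72), Grb14, an adaptor of the insulin receptor (-0.48), Slc16a9 (-0.44), Calcoco1 (-0.37) and Gprasp2 (-1.11). Tspyl4, Slc16a9 and Mmp11 each overlap an annotated gene on the opposite strand. Gprasp2 shares its strand with the overlapping Bhlhb9, and Herc6 with the overlapping Gm45193. Reads in these overlaps cannot be assigned to a single gene with certainty.

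Genes known to respond to glucocorticoids were described as a list because both metallothionein genes belong to that class. Of 16 tested, 16 stood above 0, where 30.7% of all tested genes did, and 1 passed, Mt2. Mt1 and Mt2, for which the list was taken up, are among the 16, so the count is a description. Klf9 fell to -0.003 without PBS long 2. Hif3a fell to -0.05 without PBS long 2 and to -0.10 without long MCh b. The median difference of the list was 0.48, against -0.11 for all genes. Within the protocols it was 0.19 (12 of 16 above 0) in the short and 0.84 (16 of 16) in the long. Scaling by median of ratios gave a list median of 0.57, quantile normalization 0.56 and array weights 0.54.

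Fkbp5, a co-chaperone that restrains the glucocorticoid receptor and is itself a target of it, stood at 89.2, 134 and 102 FPKM in short PBS and at 149, 163, 183 and 108 FPKM in short MCh, with overlap. In the long protocol it stood at 40.2, 34.3 and 38.1 FPKM with PBS and at 133, 165, 179 and 103 FPKM with MCh. The long difference of Fkbp5 was 1.90 ± 0.21, which limma called in the long contrast, and the short one was 0.47 ± 0.21. The pooled difference, 1.18 ± 0.24, did not pass (adjusted p = 0.194). Long PBS libraries were the lowest of the 4 groups, and the MCh libraries ranged from 108 to 183 FPKM in the short and from 103 to 179 FPKM in the long protocol.

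Tsc22d3, which encodes the glucocorticoid-induced leucine zipper, was also lowest in the long PBS libraries. It gave 578, 664 and 596 FPKM against 668, 775, 793 and 1010 FPKM in the short protocol and 314, 127 and 187 FPKM against 603, 456, 448 and 390 FPKM in the long one. MCh and PBS did not overlap in either, which the unadjusted exact permutation p, 0.000816, restates. The pooled difference of Tsc22d3 was 0.82 ± 0.21 (limma adjusted p = 0.421). Angptl4, an inhibitor of lipoprotein lipase, stood at 122, 143 and 147 FPKM against 146, 140, 147 and 189 FPKM in the short protocol, with overlap. Its long values were 43.2, 22.4 and 20.6 FPKM against 134, 59.5, 125 and 72.8 FPKM, and its pooled difference was 0.96 ± 0.29 (adjusted p = 0.506, limma).

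The Krüppel-like factor Klf15 gave 36.6, 39.9 and 34.96 FPKM against 34.0, 40.6, 46.3 and 53.7 FPKM in the short protocol and 23.1, 16.5 and 18.7 FPKM against 35.8, 34.7, 36.0 and 26.4 FPKM in the long, a pooled difference of 0.49 ± 0.14. Cdkn1a, the cyclin-dependent kinase inhibitor p21, stood at 0.65 and Zbtb16 at 0.72 ± 0.40. Per1, a clock gene with a glucocorticoid response element, stood at 0.43 and Pdk4, which limits pyruvate oxidation, at 0.48. Lcn2 (0.33), Errfi1 (0.26), Sgk1 (0.22), Dusp1 (0.21), Klf9 (0.12) and Hif3a (0.09) lay nearer to 0. None of these passed.

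Clock genes had unequal medians in the protocols beside this list. Of 19 circadian clock genes tested, 2 stood above 0 in the short protocol and 13 in the long, with medians of -0.32 and 0.45. The time of collection is not in the labels, and its part in the glucocorticoid-responsive values was not tested.

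**Figure D3:**
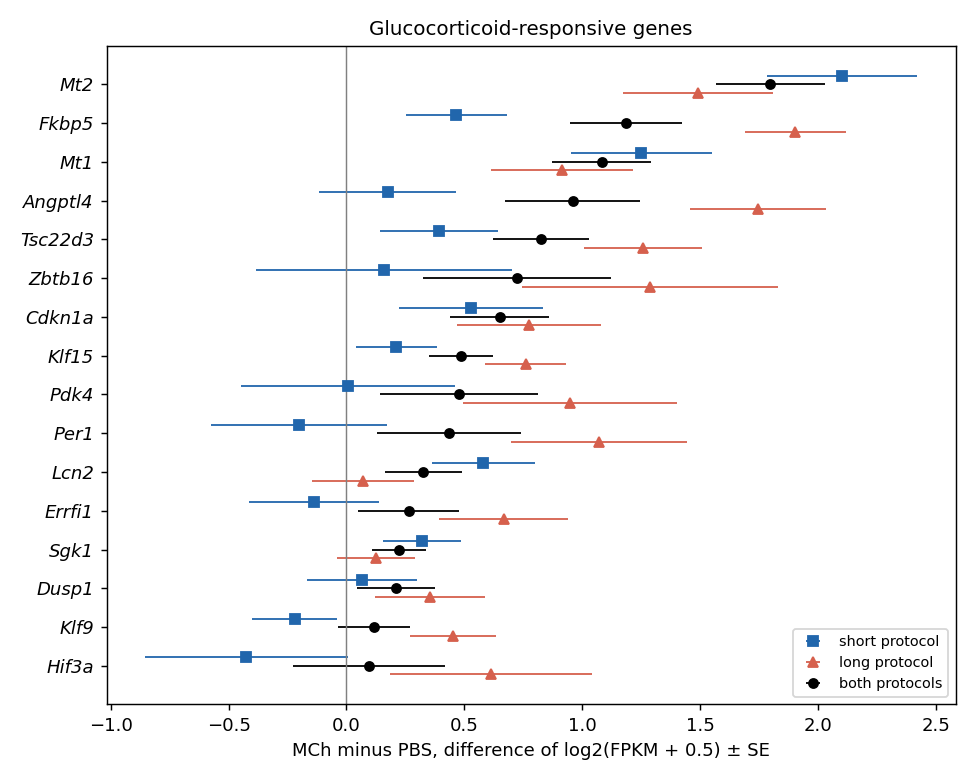
Log2 difference, MCh minus PBS, of the 16 tested glucocorticoid-responsive genes (pooled, short and long protocol, bars are standard errors). All 16 pooled values lie above 0, the long values have a median of 0.84 and the short ones a median of 0.19, and Mt2 alone passed the pooled test.

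Airway smooth muscle is the tissue that MCh contracts. Of 20 contractile genes tested, none passed, 11 stood above 0 and the median was 0.08. In the short protocol the median was 0.12 and in the long -0.04. Tagln, transgelin, an actin-bundling protein of smooth muscle, stood at 167, 154 and 138 FPKM in short PBS and at 250, 258, 260 and 353 FPKM in short MCh. Its long values were 157, 164 and 166 FPKM against 255, 184, 173 and 231 FPKM. Tagln did not overlap in either protocol, with a pooled difference of 0.61 ± 0.13 (limma adjusted p = 0.226), 0.86 ± 0.16 in the short and 0.36 ± 0.16 in the long. Tagln overlaps Pcsk7 on the opposite strand.

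Acta2, smooth muscle alpha-actin, stood at 102, 93.4 and 70.8 FPKM against 150, 127, 125 and 134 FPKM in the short protocol, without overlap. In the long protocol Acta2 stood at 98.2, 125 and 119 FPKM against 98.4, 99.2, 105 and 128 FPKM, with overlap. Its pooled difference was 0.26 ± 0.13 (adjusted p = 0.566, limma), with 0.61 ± 0.15 in the short and -0.09 ± 0.15 in the long. The test of the difference between protocols gave an unadjusted p of 0.00504 for Acta2 and an adjusted p of 0.975 by limma.

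Myl9, the regulatory light chain that myosin light chain kinase phosphorylates, is shown by its promoter because it was one of the 4 contractile genes of smallest p and its window holds a CArG box, the site of serum response factor. The window is chr2:156775214-156775513, plus strand, GRCm38.p6, and capitals mark the box.
Myl9: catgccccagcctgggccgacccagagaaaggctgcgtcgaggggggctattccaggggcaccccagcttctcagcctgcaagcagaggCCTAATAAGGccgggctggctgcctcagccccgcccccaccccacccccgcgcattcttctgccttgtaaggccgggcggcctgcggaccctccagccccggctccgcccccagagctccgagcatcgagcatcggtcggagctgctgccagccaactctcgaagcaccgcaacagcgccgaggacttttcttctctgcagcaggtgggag
The box was searched on both strands only in its strict form, CCWWWWWWGG, where W is A or T. This form is present in 1.63% of the 32851 promoters. The windows of Acta2 and Cnn1 hold no match to the strict form. Looser forms, such as CCCTATATGG in the Acta2 window, were not searched, so a lack of such sites is not shown. Myl9 stood at 10.8, 10.6 and 8.57 FPKM against 14.7, 15.1, 12.9 and 16.8 FPKM in the short protocol, without overlap. Its long values were 11.2, 12.05 and 11.6 FPKM against 12.02, 10.7, 11.2 and 12.1 FPKM, and the pooled difference was 0.27 ± 0.12 (adjusted p = 0.545, limma).

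Other contractile genes gave mixed values, some of which rested on a few libraries. Cnn1, calponin, stood at 0.42 ± 0.24, Myh11, the smooth muscle myosin heavy chain, at -0.09 ± 0.28, Mylk, its activating kinase, at -0.26 and Lmod1, leiomodin, at -0.48. Without the 4 low-weight libraries Myh11 was at 0.14, Mylk at 0.00 and Lmod1 at 0.05, and Lmod1 was at -0.19 without long MCh c alone. Myh11, Mylk and Lmod1 have long transcripts and Tagln and Myl9 short ones. Myh11 was at 4.83 FPKM in short MCh 4, the library rich in short transcripts, and between 14.6 and 27.1 FPKM in the other 13. Over 15075 genes with a known length the Spearman correlation of the pooled difference with length was -0.278, a description across genes that share the same libraries. With each library's trend with length removed, Tagln stood at 0.67 (adjusted p = 0.029, limma), a call, and Myh11 at 0.12. Lmod1 was also low in long MCh c, at 0.268 FPKM. The part of transcript length in the contractile values was not tested.

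The receptor side gave no call. Of 9 tested genes of muscarinic receptors and acetylcholine handling, 4 stood above 0 and the median was -0.00. Chrm3, the receptor that contracts airways, stood at 0.03 ± 0.26, Chrm2, which inhibits acetylcholine release, at -0.44 ± 0.29 and Chrm1 at -0.02 ± 0.25. Chrm2 was listed at 0 FPKM in long MCh a and at 0.030 FPKM in long MCh c, and without the 4 low-weight libraries its difference was -0.01. The signs for Chrm1 and Chrm3 turned when single libraries were left out. Among 24 Gq and calcium genes 4 stood above 0, with a median of -0.17, and of -0.02 with array weights and 0.01 without the 4 low-weight libraries. Plcb2, a phospholipase C, stood at -0.45.

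Regulators of G protein signalling, which shorten Gq signals, had a median of -0.15 over 15 tested genes, 3 of them above 0. Rgs2 stood at -0.15, Rgs3 at -0.45, Rgs4 at 0.12 and Rgs5, a pericyte gene, at -0.26. In the beta-adrenergic and relaxation list 6 of 22 stood above 0, and the median was -0.18. Adrb3, a beta-adrenergic receptor, stood at -0.52. No gene of these lists passed.

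Growth factor and mechanical response genes were read in the same way. Of 20 TGF-beta genes 3 stood above 0 (median -0.15), with Tgfb1 at -0.14, Tgfb2 at -0.25 and Thbs1, thrombospondin 1, which can activate latent TGF-beta, at 0.58 ± 0.20. The sign for Tgfb2 rested on a few libraries: it was 0.01 without long MCh a, 0.25 with array weights and 0.28 without the 4 low-weight libraries, and in the last pair of fits Tgfb1 was at 0.02 and 0.03. Of 13 epidermal growth factor receptor genes 3 stood above 0 (median -0.07). Hbegf, a ligand of that receptor, stood at 0.52 ± 0.13 with a limma adjusted p of 0.431, while Areg, another ligand, was at -0.02 (0.30 with array weights) and the receptor Erbb2 at -0.35.

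Ccn2, connective tissue growth factor and a target of YAP, stood at 94.6, 124 and 120 FPKM against 121, 154, 155 and 118 FPKM in the short protocol, with overlap. In the long protocol Ccn2 stood at 80.8, 66.2 and 71.2 FPKM against 136, 113, 92.1 and 147 FPKM, without overlap, and its pooled difference was 0.50 ± 0.13 (limma adjusted p = 0.462, and 0.00361 with array weights). Ccn1, a related YAP target, was at 0.02. The list of 18 tested mechanosensitive channel, YAP pathway and YAP target genes had a median of -0.08. Collagen genes (21 tested, 3 above 0) had a median of -0.13, with Col1a1 at -0.16 and Col3a1 at -0.11. The matrix and remodelling list of 27 had a median of -0.00.

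Stress and protein folding genes had 1 call. Of 20 antioxidant and metal response genes 16 stood above 0 (median 0.16), and Mt2 was the only call. Endoplasmic reticulum folding genes (20 tested, 8 above 0) had a median of -0.09, with the lectin chaperone Calr at -0.31 and the disulphide isomerase Pdia3 at -0.20. Heat shock genes had a median of -0.15 over 17, at -0.31 in the short and 0.08 in the long protocol, with the co-chaperone Dnajb1 at 0.78 and the small heat shock gene Hspb1 at -0.70. Immediate early genes, which follow growth factor and calcium signals within minutes to hours, had a median of -0.13 over 19, with Klf4 at 0.42. Cholesterol synthesis, the route of Pmvk, had 11 of 20 above 0 and a median of 0.02. In the prostaglandin list 6 of 22 stood above 0 (median -0.12), with Ptgs2, cyclooxygenase 2, at -0.28.

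Immune and secretory lists had no call, and many of their medians, among them the next 4, had opposite signs in the protocols. Goblet cell and mucus genes had a median of -0.15 over 17, from 0.67 in the short to -0.79 in the long protocol, with the mucin Muc5ac at -0.29. Type 2 inflammation genes went from 0.13 to -0.55 (19 tested, pooled -0.18) and alternatively activated macrophage genes from 0.27 to -0.70 (16 tested, pooled -0.23). Interferon response genes went from 0.12 to -0.63 (20 tested, pooled -0.18). Cell cycle genes stood at -0.02 in the short and -0.41 in the long protocol, with 3 of 24 above 0 in the pooled fit.

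Cell markers of the lung are given for the whole lists. Club cell genes had 9 of 10 above 0, a median of 0.38 and 0.15 with array weights, with summed levels of 43520 to 51824 FPKM in short PBS and 45549 to 58061 in short MCh. Long club cell sums were 42049 to 45878 FPKM with PBS and 37063 to 43133 with MCh. B cell and plasma cell genes had 3 of 14 above 0 and a median of -0.67, at -0.20 in the short and -1.02 in the long protocol. Their sums were 132 to 338 FPKM in short PBS, 136 to 361 in short MCh, 162 to 230 in long PBS and 145 to 178 in long MCh, so that the groups overlapped. T cell and natural killer cell genes had a median of -0.36 (4 of 15 above 0), with sums of 62.8 to 145 and 61.5 to 180 FPKM in the short protocol and of 73.1 to 103 and 43.1 to 69.2 FPKM in the long one, where MCh lay under PBS. Eosinophil genes summed to 6.92 to 13.01 FPKM in short PBS, 7.40 to 40.3 in short MCh, 15.9 to 18.4 in long PBS and 7.19 to 10.9 in long MCh. The 40.3 was that of short MCh 1, and short MCh 4 came next in its group at 14.6. Within the list Alox15 reached 28.7 FPKM and Siglecf, also on the alveolar macrophage list, 8.56. The granule genes Epx, Prg2 and Prg3 reached 0.225, 2.34 and 0.706 FPKM. The list had 3 of 10 above 0 and a median of -0.10, at 0.19 in the short and -0.40 in the long protocol.

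Endothelial genes had 3 of 14 above 0 and a median of -0.25, and of -0.06 with array weights; Kdr, the VEGF receptor, stood at -0.64 and Tek, the angiopoietin receptor, at -0.33. Of 12 alveolar type 2 genes 6 stood above 0, with Etv5, a transcription factor of these cells, at -0.69. Cardiac muscle genes, known in mouse lung from the muscle around pulmonary veins, summed to between 66.2 and 878 FPKM across libraries, with the lowest in long PBS and the highest in short MCh. Ribosomal protein genes stood above 0 in 22 of 25 (median 0.14) and respiratory chain genes in 18 of 20 (median 0.15). With array weights these medians were -0.01 and 0.00. The part of these cell and RNA make-up lists in the called genes was not tested. Under median-of-ratios scaling or quantile normalization 18 of the 52 list medians changed sign, each between -0.17 and -0.00 on the deposited scale. Among those given here they were the muscarinic, epidermal growth factor receptor, matrix, immediate early, prostaglandin, goblet, monocyte, eosinophil and alveolar type 2 lists. The glucocorticoid-responsive, clock, smooth muscle, club cell, B cell and T cell lists did not. With array weights or without the 4 low-weight libraries 17 list medians changed sign, among them the Gq and calcium, beta-adrenergic, TGF-beta, YAP, collagen, muscarinic, epidermal growth factor receptor, matrix, cardiac, ribosomal protein and respiratory chain lists.

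**Figure D4:**
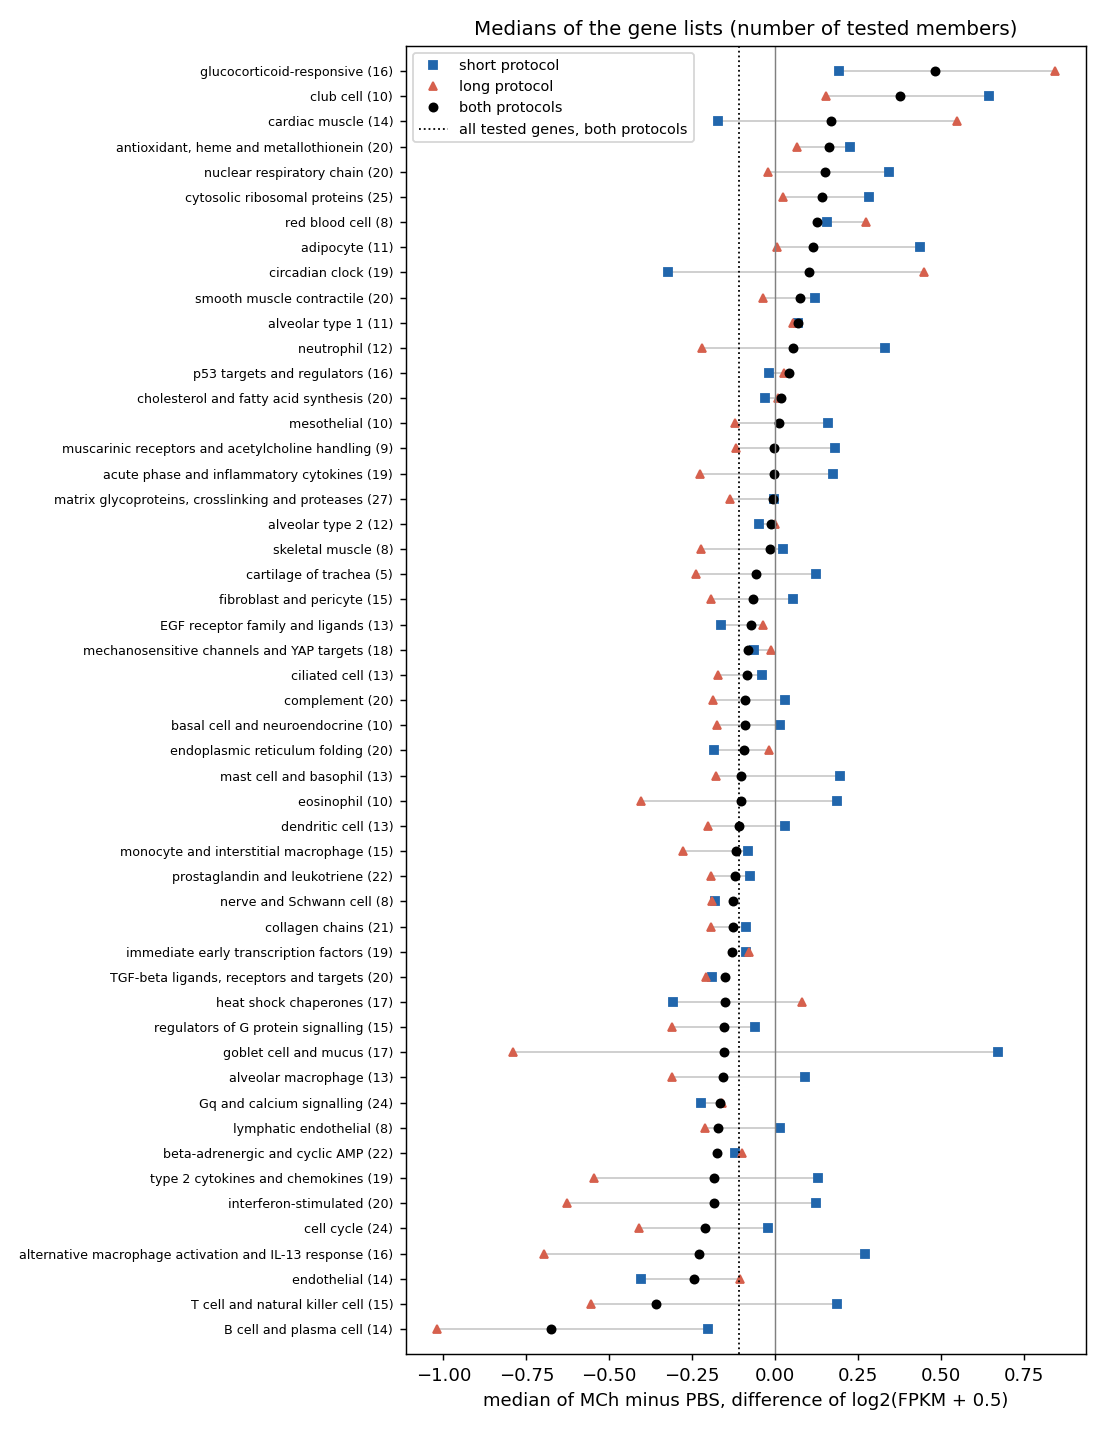
Median log2 difference, MCh minus PBS, of 51 gene lists (pooled, short and long protocol); the dotted line is the median of all genes, -0.11. The glucocorticoid-responsive list has a pooled median of 0.48 and the B cell and plasma cell list one of -0.67, and in several immune lists the short and long points lie on opposite sides of 0.

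The protocols were then compared directly, asking whether the MCh difference was unequal in the long and the short protocol. No gene passed the interaction test of limma; 433 genes had an unadjusted p below 0.05 (2.82% of those tested) and the adjusted p of the genes named here was 0.975. In the short contrast no gene passed (569 at an unadjusted p below 0.05, 3.71%). The long contrast had 1334 genes at an unadjusted p below 0.05 (8.69%) and called 2 (0.013%), Fkbp5 with an adjusted p of 0.008 and Arl2bp with 0.0171. For Fkbp5 the call was lost without PBS long 2 (adjusted p = 0.107) and without the 3 libraries richest in zeros (0.404).

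Arl2bp, which binds the small GTPase ARL2 and is found at cilia, stood at 4.55, 4.54 and 4.43 FPKM in long PBS and at 26.4, 20.2, 24.8 and 12.9 FPKM in long MCh. Short values of Arl2bp were 13.3, 12.3 and 22.8 FPKM against 18.9, 14.5, 23.1 and 15.8 FPKM, with overlap. Its long difference was 2.06 ± 0.26 and its pooled one 1.12 ± 0.30 (adjusted p = 0.462, limma). As for Fkbp5, the long PBS libraries were the low ones. The Arl2bp call was lost without PBS long 1 (adjusted p = 0.0588), PBS long 2 (0.149), PBS long 3 (0.0532), long MCh a (0.073) or long MCh c (0.0894). It was also lost without the 3 libraries richest in zeros (0.613), without those of weight under 0.25 (0.273) and without the 4 low-weight libraries (0.18).

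Retnla, a protein that macrophages and airway epithelium secrete in type 2 inflammation, had the smallest interaction p of the named genes, 0.000182. It gave 128, 46.5 and 19.9 FPKM in short PBS and 299, 177, 82.4 and 470 FPKM in short MCh. Long PBS libraries gave 1430, 1647 and 224 FPKM and long MCh libraries 41.1, 111, 63.0 and 103 FPKM. The differences were 2.10 ± 0.77 in the short and -3.44 ± 0.77 in the long protocol, with the long PBS libraries above all others but short MCh 1 and 4, which exceeded the lowest of them. Sec14l2, a lipid-binding protein, gave 20.8, 17.3 and 13.7 FPKM against 11.4, 12.9, 14.5 and 12.2 FPKM in the short protocol and 9.71, 8.12 and 10.1 FPKM against 18.7, 15.4, 15.2 and 13.3 FPKM in the long one. Its difference between protocols was 1.12 ± 0.24 (unadjusted p = 0.000421), and the long groups did not overlap.

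MCh and OVA were set side by side. The differences of both from PBS share the same 6 PBS libraries, so only OVA against MCh was used as a test. That test called 2217 of 15557 genes (14.3%), and OVA against PBS called 6459 of 15516 (41.6%). Most genes named below were picked by their values in the same 8 MCh libraries that OVA was tested against. Their differences from OVA are therefore descriptions and no separate support. Mt2 stood at 2.40 ± 0.34 with OVA against PBS beside 1.80 ± 0.23 with MCh. Mt2 in OVA mice was at 240, 154, 160 and 211 FPKM in the short protocol and at 50.6, 18.4, 74.2 and 85.4 FPKM in the long, and OVA against MCh was 0.60 ± 0.27, which did not pass.

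Maff and Pmvk were lower with OVA than with MCh. OVA against MCh gave -0.80 ± 0.12 for Maff (adjusted p = 0.00023, limma) and -0.69 ± 0.12 for Pmvk (0.0010). Against PBS, OVA stood at 0.07 ± 0.13 for Maff and at 0.26 ± 0.09 for Pmvk. Bcl2l1 and Fam107a, an actin-associated stress response gene, also differed between the aerosols, with adjusted p-values of 1e-06 and 9.5e-07. OVA against PBS stood at -0.58 for Bcl2l1 and at -0.67 for Fam107a, beside MCh differences of 0.76 ± 0.14 and 0.99 ± 0.18. Fam107a stood at 26.5, 38.0 and 23.6 FPKM against 40.9, 44.5, 45.1 and 42.5 FPKM in short PBS and MCh, and at 15.4, 10.3 and 10.9 FPKM against 46.8, 32.3, 29.1 and 25.9 FPKM in the long protocol, without overlap in either.

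Ccr2 differed in the other direction: it was higher with OVA than with MCh (adjusted p = 4.5e-05, limma), at 0.998 ± 0.25 for OVA against PBS beside -0.66 ± 0.14 for MCh. Mt1 stood at 1.09 with OVA and 1.08 with MCh, Tsc22d3 at -0.73 with OVA and 0.82 with MCh, and Tagln at 0.69 ± 0.07 with OVA and 0.61 ± 0.13 with MCh. For Tagln the adjusted p of OVA against MCh was 0.66. Of the 12 higher genes that did not pass, 7 differed between OVA and MCh, and of the 12 lower ones 5 did. Across all genes of that test 14.3% differed. Picking genes by extreme MCh values favours a difference from OVA, so these counts are not read as a result.

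**Figure D5:**
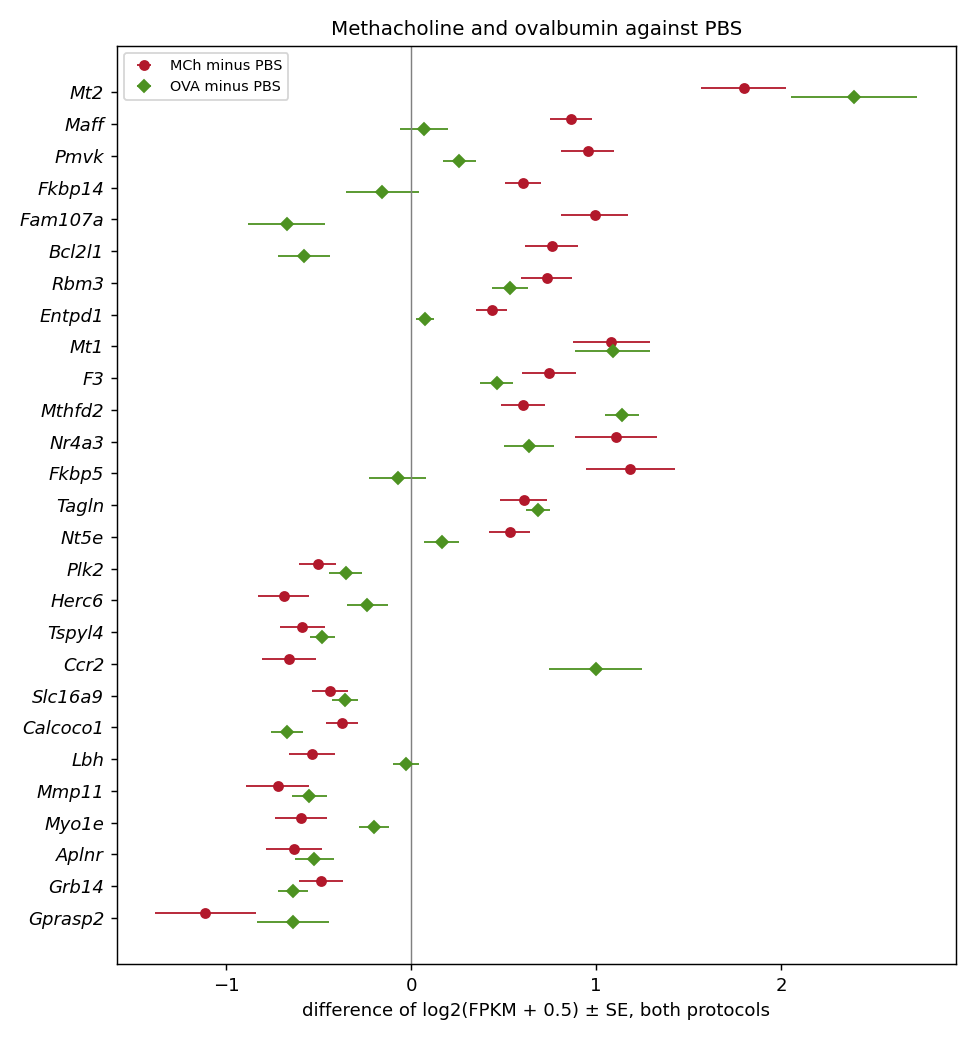
Log2 differences of MCh minus PBS and of OVA minus PBS for 27 genes (bars are standard errors); both share the same 6 PBS libraries. Mt2 lies above 0 for both aerosols, while Bcl2l1 and Fam107a lie above 0 with MCh and below 0 with OVA.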

How the data were processed

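Total RNA of mouse lung was extracted on columns with DNase I, and libraries were made with a stranded total RNA kit, per the labels' protocols. The authors deposited gene tables of FPKM. Trim Galore, STAR, DESeq2 and the build mm10 are named in the submitters' processing notes; their versions and roles, and the strand setting of the counting, are unknown here (not given in the sources used here). FPKM are not counts, so no count model was fitted.

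Genes with FPKM of at least 0.1 in at least 3 of the 14 libraries were kept (15357 of 20938), and a linear model of aerosol plus protocol was applied to log2(FPKM + 0.5) (limma 3.58.1, R 4.3.3, eBayes with intensity trend, two-sided). P-values were adjusted by Benjamini-Hochberg over all tested genes and genes with an adjusted p below 0.05 were called. Single genes were also tested by exact permutation within protocols (1225 assignments). The scripts were tested on simulated data.

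Groups came from the labels. Text genes were the called genes, the 12 higher and 12 lower named genes of smallest p that were not called, up to 2 genes of each list, fixed key genes and the smallest interaction p-values. The members and gene lists were chosen with earlier results of these data known. In the table, 26 gene names had been turned into dates and were not named. A few other items are not reported here. Of the same-numbered short mice, number 3 deviated together (correlation 0.359) and numbers 1 and 2 did not (-0.171 and -0.245), so numbers were not taken to pair them.

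Alternatives varied the pseudocount, filter, scaling, weights, variance model, protocol term, libraries, gene summing, transcript length trend and a replicate block. Leaving out 4 low-weight MCh libraries, and all alternatives of the single-protocol contrasts, were added after the data were seen. Promoters came from the RefSeq table of GRCm38.p6, where all but Tagln of the genes searched were matched.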

Additional observations from a re-analysis of the deposited data

Results flagged for a closer look

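Within groups of 4 mice, a value was singled out when its gap to the nearest other value, divided by the range of the group, was above Dixon's 95% critical value for 4 samples. This held for 11 of 168 gene and group pairs, and chance flags about 1 in 20 groups. Short MCh 4 held 6 of the 11: it was the highest of its group for Angptl4 (188.6 FPKM), Pmvk (20.83 FPKM) and Tagln (353.1 FPKM) and the lowest for Lmod1 (1.049 FPKM), Pdia3 (277.7 FPKM) and Plcb2 (1.746 FPKM). Short MCh 1 was the lowest of its group for Fkbp14, at 31.12 FPKM.

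Long MCh a was the highest of its group for Mt1 (104.4 FPKM). Long MCh c was the lowest for Lmod1 (0.2678 FPKM) and Plcb2 (2.037 FPKM), and long MCh d the lowest for Klf15 (26.4 FPKM). Of the called genes only Pmvk is among these values. Short MCh 1, short MCh 4, long MCh a and long MCh c are also the 4 libraries of lowest array weight, and their part in these values was not tested further.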

How the results depend on the processing

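The number of genes called between MCh and PBS, 3 in the fit reported, depended on the weight of single libraries. It was 217 with array weights (109 higher, 108 lower), 20 without libraries of weight under 0.25 (15 and 5), 70 without the 4 low-weight libraries (43 and 27, chosen after the data were seen), 22 in a fit of all 22 libraries (15 and 7) and 8, all higher, with the length trend removed. By limma it was 0 without the 3 libraries richest in zeros (1527 genes at an unadjusted p below 0.05), against a fold of 1.2 by treat (176), without a protocol term (1264), in the short protocol alone (644) and in the long alone (879). Leaving out single libraries gave 0 to 6 calls, none lower: 0 without PBS long 1, PBS short 1, MCh short 2 or MCh short 3 (938 to 1573 at an unadjusted p below 0.05), 1 without PBS short 3 and 6 without MCh short 4. With the replicate number as a block limma called 0 genes (446 at an unadjusted p below 0.05). Long MCh libraries carry no number and form 1 level, and short MCh 4 is alone in its level. The aerosol term of this fit therefore rests on short MCh 1 to 3 against short PBS 1 to 3. It is no check of the long protocol.

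The interaction had 0 calls, 4 with array weights (Actr2, Gxylt1, Arsi and Zfp973), 2 without libraries of weight under 0.25, 3 without the 4 libraries and 0 to 1 on leaving out single libraries (Rnase2a without PBS long 3); these genes were named after their values were seen, and a replicate block could not be fitted there. The short contrast went from 0 to 207 calls with array weights, 2 without the 4 libraries (Osgin2 and Cyp1a1) and 0 to 1 on leaving out single libraries (1 without PBS short 3 or MCh short 3). The long contrast went from 2 to 89 with array weights, 5 with the length trend removed, 1 without the 3 libraries, 4 without low weights, 6 without the 4 libraries and 0 to 5 on leaving out single libraries (0 without PBS long 2, 1 without long MCh a or c, 5 without PBS long 3 or long MCh d). OVA against MCh went from 2217 to 3944 with array weights, 5614 without the 4 libraries and 1753 to 3072 on leaving out single libraries. The cause of these shifts was not tested.

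Of 2854 values of single genes under the alternatives, 2728 kept their side of the threshold, 44 lost a call and 82 gained one. No called value changed sign, while 99 values of 27 genes that were not called did. Pmvk also missed the threshold with a pseudocount of 1 (adjusted p = 0.0556, limma), without a filter (0.0615), with median-of-ratios scaling (0.0527) and with 1 coefficient per group (0.0551). Depth is unknown, so no limit of detection can be given.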
